A study of Mus musculus with 6 samples.

Results

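Rarres2, the gene for the secreted protein chemerin, was 1 of 329 genes that the study's primer panels counted in single cells of mouse hypothalamus, and 1 of 12 genes present in both gene sets. It was chosen by its share of cells and its level in earlier results of these data, which showed it in nearly every cell, so both are given as a description and carry no test. The larger gene set held 265 genes and the smaller set 75, and 1 library of the larger set held Mbp in addition. The primers came as a pair of custom panels, 1 for weakly and 1 for strongly expressed genes, with some genes put in both. Values came from 1253 cells of 1858 barcodes: 1124 cells in the 4 libraries of the larger set and 129 in the 2 libraries of the smaller set. A cell was a barcode with at least 20 UMIs (unique molecular identifiers, the molecules counted) and at least 5 detected genes.

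All mice were C57/Bl6 with the KLB-CRE and Ai14 alleles, in which Cre recombinase, driven from the gene for the FGF21 co-receptor Klb, switches on the red reporter tdTomato for good, so that tdTomato also stays on in cells that no longer use Klb. There was no other genotype and no treatment, and the labels used here give no age. Each capture pooled 3 hypothalami, so animals cannot be told apart within it, and there were 3 captures. Cells were sorted for tdTomato and for viability with Hoechst dye before capture on the BD Rhapsody. Of the larger set, 1 library was labelled panel 1 (replicate 1, called A1 here) and 3 were labelled panel 2 (replicates 1, 2 and 3, called B1, B2 and B3). Of the smaller set, C2 is the library labelled panel 1 of replicate 2, and C3 stands in the same table as B3, labelled panel 2 of replicate 3, from which the cells were parted by the genes they were counted for. No Klb UMI was found in any of the 4 libraries of the larger set, which allows a share of cells with a Klb UMI of up to 0.316% in A1 and up to 6.98% in B2. It does not limit the share of cells that use Klb, since the median cell of A1 held 51 UMIs. tdTomato RNA was found in 281 of 950 cells of A1, and in 0 of 44, 41 of 43 and 86 of 87 cells of B1, B2 and B3.

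Chemerin is made as an inactive precursor, and proteases of the clotting and inflammatory systems activate it by trimming its C terminus. The active form attracts macrophages and dendritic cells through the receptor Cmklr1, and it is also known as an adipokine, a hormone of fat tissue. In the rodent hypothalamus Rarres2 is known from tanycytes and ependymal cells, the cells that line the third ventricle, and in rats it follows day length there. Its name, retinoic acid receptor responder, comes from its induction by retinoids.

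Both amplicons of Rarres2, called PolyA_1 and Reference_end in the tables, were designed on 1 RefSeq transcript. The GENCODE vM21 annotation of GRCm38 pairs that entry with a transcript of 6 exons and 795 bases on the minus strand of chromosome 6, at chr6:48569696-48572755, with 489 coding bases including the stop codon and 121 bases after it. The reads were processed on mm9 per the submitters' processing notes, so these coordinates locate the gene and were joined to no file. Primers at the 3′ end of a transcript read this part of the gene, so its ends are shown here. In the first sequence, chr6:48569952-48570011, capitals mark the stop codon that closes the tail which proteases trim. In the second, chr6:48569696-48569725, capitals mark the polyadenylation signal AATAAA, which stands 30 bases before the end.
End of the coding sequence: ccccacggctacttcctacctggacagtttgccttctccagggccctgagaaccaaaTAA
Last 30 bases of the transcript: AATAAAattgctgagtctgttcctttccaa

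Depth set much of what could be seen of Rarres2. The total was 105772 UMIs in A1, 11423, 79560 and 109452 UMIs in B1, B2 and B3, and 25964 and 76898 UMIs in C2 and C3. The median cell held 51 UMIs in A1 and 115.5, 1352 and 1068 in B1, B2 and B3, against 1044 and 705 in C2 and C3. Complement gene C1qa took 85.0% and 92.7% of the UMIs of C2 and C3, while no gene took more than 12.1% in the larger set. No kept cell index was shared between libraries except 2 found in both sets of replicate 3, and 21 barcodes that replicates 2 and 3 shared were left out. Intervals below are exact 95% intervals and cover counting error only. Cells of 1 library share capture, primers and sequencing, so they are not replicates.

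Rarres2 was found in most cells of every library. It had at least 1 UMI in 830 of 950 cells of A1 (87.4%, 85.1 to 89.4%), and in 43 of 44 (97.7%, 88.0 to 99.9%), 40 of 43 (93.0%, 80.9 to 98.5%) and 87 of 87 cells (100%, 95.8 to 100%) of B1, B2 and B3. It was found in 25 of 25 cells of C2 (100%, 86.3 to 100%) and in 95 of 104 cells of C3 (91.3%, 84.2 to 96.0%). The mean share was 96.9% ± 3.56 over B1, B2 and B3 (SD, n = 3 captures) and 95.7% ± 6.12 in the smaller set (SD, n = 2 captures).

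These shares depended on depth. When each cell was thinned to 35 UMIs, which left out 306 cells of A1 and 1 cell of B1, the expected share was 77.5% in A1 and 76.2%, 9.88% and 24.7% in B1, B2 and B3. It was 34.6% in C2 and 15.0% in C3. At matched depth A1 and B1, both of replicate 1, thus had higher shares than B2 and B3, whereas at full depth A1 had the lowest share of all 6. The thinned shares of C2 and C3 cannot be set against those of the larger set, since most of the 35 UMIs are C1qa there. Within A1 the share was 71.3%, 92.4% and 98.4% in the low, middle and high tercile of cells by total UMIs.

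Per 1000 UMIs, Rarres2 had 41.7 UMIs (40.5 to 43.0) in A1. It had 52.3 (48.2 to 56.6), 3.33 (2.94 to 3.76) and 9.30 (8.74 to 9.89) per 1000 UMIs in B1, B2 and B3. The range over these 4 libraries was 15.7-fold, and only A1 and B1 were above 10 per 1000. The level was 12.4 (11.1 to 13.9) in C2 and 4.92 (4.43 to 5.44) in C3, but their total is mostly C1qa, so levels cannot be set across the gene sets. The mean was 21.6 ± 26.7 per 1000 over B1, B2 and B3 (SD, n = 3 captures), an SD larger than the mean, and 8.68 ± 5.32 in the smaller set (SD, n = 2 captures).

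Counted per cell instead of per 1000 UMIs, the libraries differed less. A cell of the larger set held a mean of 4.65 Rarres2 UMIs in A1 and 13.6, 6.16 and 11.7 in B1, B2 and B3, a range of 2.92-fold, while median depth ranged 26.5-fold. The means were 12.9 in C2 and 3.63 in C3. The median cell held 2 Rarres2 UMIs in A1 and 4, 4 and 9 in B1, B2 and B3, against 12 and 3 in C2 and C3. The lowest cell held 1 UMI in B3, 2 in C2 and 0 in the other libraries. The highest held 81 in A1, 319, 57 and 147 in B1, B2 and B3, and 25 and 14 in C2 and C3. Fewer cells that use the gene and less RNA per cell cannot be told apart in means of this kind.

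**Figure D1:**
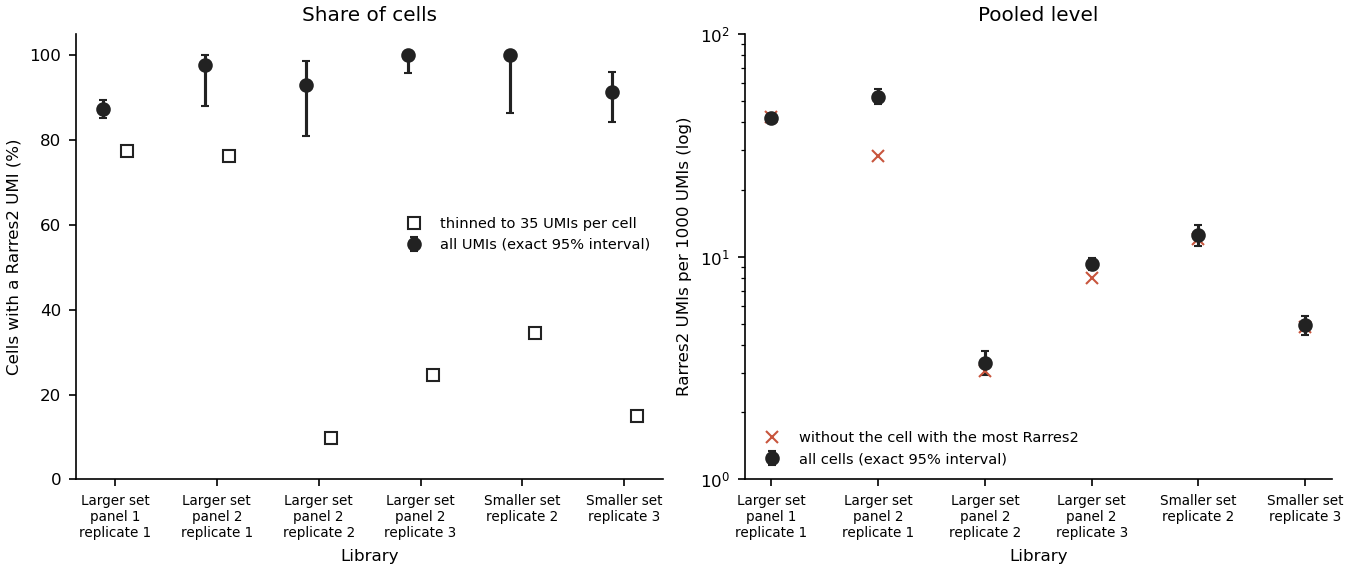
The left plot gives the percent of cells with a Rarres2 UMI in each library, at full depth (circles, exact 95% interval) and thinned to 35 UMIs per cell (squares). The right plot gives pooled Rarres2 UMIs per 1000 UMIs on a log axis, for all cells (circles, exact 95% interval) and without the cell with the most Rarres2 (crosses); B1 moves to 28.3 per 1000 without that cell.

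The place of Rarres2 among the other genes shifted with the library. By UMIs it ranked 4th of 157 detected genes in A1, between the metallothionein Mt2 (44.5 per 1000) and the proteoglycan gene Cspg4 (40.4 per 1000). It ranked 6th of 50 in B1, between Camk2n1 and Grina, 57th of 93 in B2, between Igf1 and Fyn, and 29th of 120 in B3, between Ugdh and Insr. Among the genes of the smaller set it ranked 5th of 14 in C2, between Cx3cr1 and Pvalb, and 5th of 27 in C3, between Mag and Pdgfra. Of the 12 genes that both sets share it was the one with nearly all UMIs: 96.9% in A1, 94.3%, 100% and 97.5% in B1, B2 and B3, and 100% in C2 and C3.

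Replicates 2 and 3 were read with both gene sets, and Rarres2 did not keep its order between them. A cell of replicate 2 held a mean of 6.16 Rarres2 UMIs in B2, against 12.9 in C2. A cell of replicate 3 held 11.7 in B3, against 3.63 in C3. Of the 2 cell indices found in both sets of replicate 3, one had 6 Rarres2 UMIs of 841 in B3 and 2 of 523 in C3, and the other had 4 of 999 in B3 and 7 of 1049 in C3. The libraries also differ in cell number and depth, and the part of these in the differences was not tested.

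The amplicons counted Rarres2 nearly evenly. PolyA_1 gave 2152 UMIs and Reference_end 2262 in A1. PolyA_1 gave 301, 144 and 519 UMIs and Reference_end 296, 121 and 499 in B1, B2 and B3. PolyA_1 gave 163 and 179 UMIs and Reference_end 160 and 199 in C2 and C3. The share of PolyA_1 lay between 47.4% and 54.3% in the 6 libraries. Among the genes with a pair of amplicons and at least 50 UMIs, Rarres2 was the most even of 4 and of 10 in B1 and B3 and the second most even of 13 in A1 and of 9 in B2, after Cxcl16 and Cntf. It was the most even of 2 and of 3 such genes in C2 and C3. The median gene of those with a pair had 59.8% of its UMIs in its larger amplicon in A1 and 75.2% in B3.

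The amplicons also moved together from cell to cell. Adjusted for each cell's total, their counts had a Pearson correlation across cells of 0.70 in A1 (n = 950), 0.98, 0.41 and 0.93 in B1, B2 and B3 (n = 44, 43 and 87), and 0.68 and 0.27 in C2 and C3 (n = 25 and 104). The cell with the most Rarres2 in B1 had 168 PolyA_1 and 151 Reference_end UMIs, and that of B3 had 72 and 75. That cell gave 76.8% of the squared deviations of summed Rarres2 in B1 and 84.9% in B3. The amplicon correlations of B1 and B3 can therefore rest largely on it, and they were not computed without it. In A1, 556 cells had UMIs of both amplicons, 141 of PolyA_1 alone and 133 of Reference_end alone, so a single amplicon found the gene in 73.4% and 72.5% of cells. The gap between the amplicons within a cell was smaller than an independent even split of the same UMIs gives. Its mean square over that expectation, which is 1 for an independent split, was 0.64 in A1, 0.33, 0.90 and 0.83 in B1, B2 and B3, and 0.69 and 0.85 in C2 and C3. With each gene's own split as the expectation, the 7 other genes with a pair of amplicons in A1 and at least 20% of UMIs on each ran from 0.93 to 1.38, against 0.64 for Rarres2. In B2, 4 of 5 such genes were below Rarres2, in B3 1 of 6 was, and in C2 and C3 the only such gene, Pdgfra, was, so a tight split was not particular to Rarres2. Whether 1 molecule can be counted by both amplicons was not tested, and intervals of UMI counts would be too narrow if it can.

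**Figure D2:**
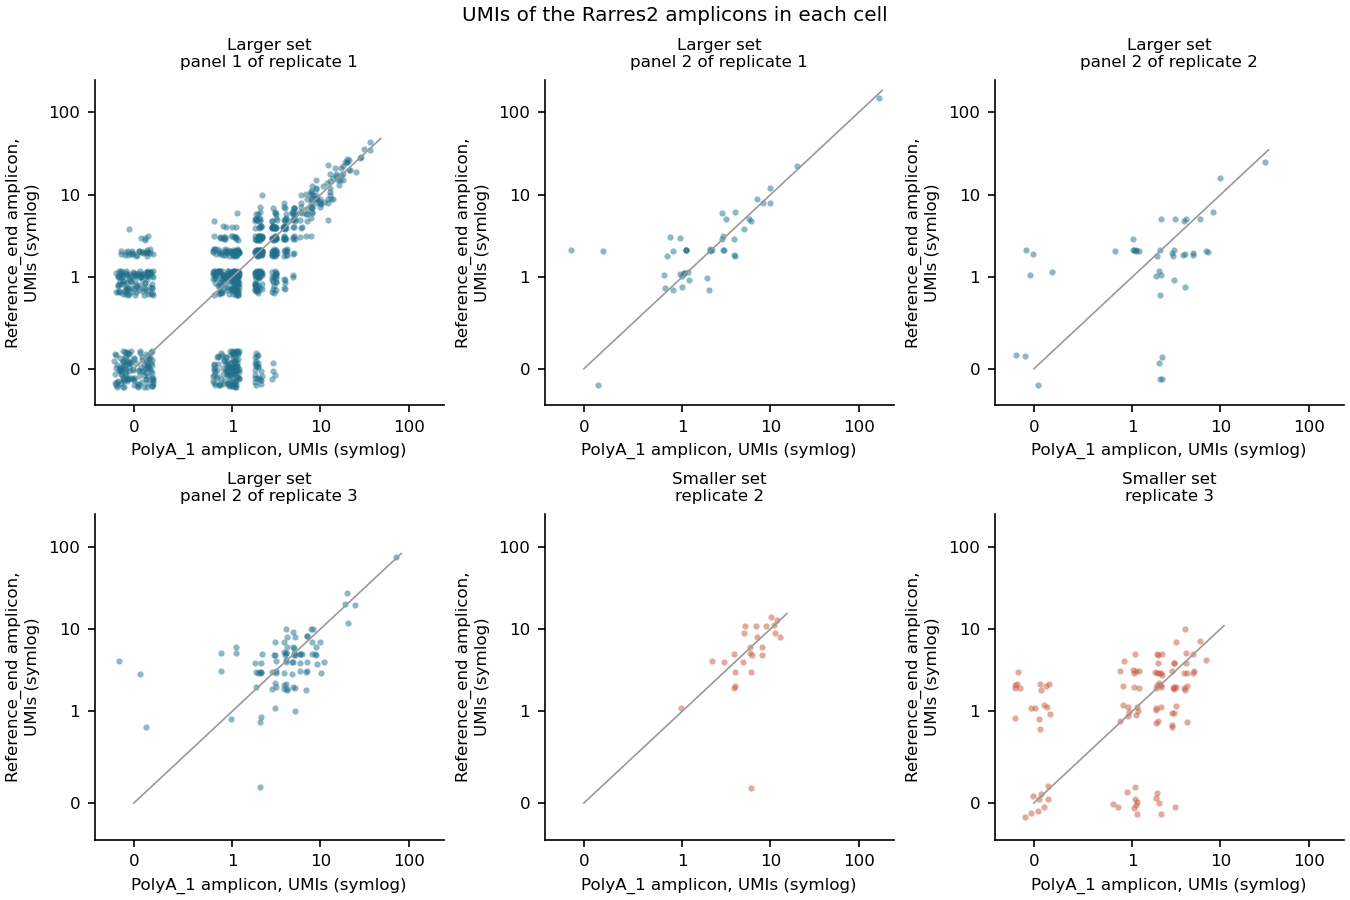
Each point is 1 cell, with its UMIs of the PolyA_1 amplicon on the horizontal axis and of the Reference_end amplicon on the vertical axis (symmetric log axes, points shifted by up to 0.2 so that they do not hide each other), and the line marks equal counts. Cells lie along the line up to the cell with 168 and 151 UMIs in B1.

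The spread of Rarres2 over cells was above 1 in every library. The spread is the mean squared deviation from the count expected at a cell's depth, divided by that count, and is 1 under counting error alone if each molecule is counted once. If both amplicons can count 1 molecule, counting error alone could give up to 2, and the values of B2 and C3 would not be above it. It was 3.76 in A1, 19.4, 1.79 and 19.9 in B1, B2 and B3, and 3.13 and 1.27 in C2 and C3. Genes with at least 1 UMI per cell on average had a median of 2.59 in A1, 3.35, 16.9 and 5.17 in B1, B2 and B3, and 4.87 and 1.27 in C2 and C3. Rarres2 thus ranked 11th of 34 in A1, 5th of 29, 69th of 75 and 4th of 78 in B1, B2 and B3, and 6th of 10 and 6th of 12 in C2 and C3.

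A single cell made most of the spread in B1 and B3. It gave 76.8% of the spread in B1 and 84.9% in B3. Without it the spread was 3.87 in B1 and 3.27 in B3, and the rank of Rarres2 in B3 moved to 54th of 78 genes. Without the cell with the most Rarres2 the spread was 3.65 in A1, 1.71 in B2, and 2.81 and 1.22 in C2 and C3. Without that cell the level in B1 was 28.3 per 1000 UMIs, against 52.3 with it, and the cell held 53.4% of all Rarres2 UMIs of its library in 14.1% of the depth.

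Cells within a library also differed in level. In Rarres2 UMIs per 1000 of the cell's own total, the 25th percentile, the median and the 75th percentile were 23.3, 39.5 and 55.4 in A1, where the highest cell reached 522. They were 28.9, 39.2 and 53.0 in B1, 1.98, 2.48 and 3.76 in B2, and 5.92, 7.49 and 9.34 in B3. They were 7.07, 10.9 and 16.9 in C2 and 2.60, 4.44 and 6.70 in C3. The median cell of A1 and of B1 was thus at nearly the same level, 39.5 and 39.2 per 1000, although their pooled levels were 41.7 and 52.3.

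Level and depth of a cell were not tied in the same way everywhere. From the low to the high tercile of cells by total UMIs, Rarres2 had 41.2, 46.3 and 40.8 UMIs per 1000 in A1. In C3 it had 3.60 (2.76 to 4.62), 4.71 (3.89 to 5.65) and 5.70 (4.94 to 6.55), with intervals of the low and the high tercile that did not overlap. In C2 the middle tercile was highest, with 9.98, 18.1 and 9.50 per 1000 in 9, 8 and 8 cells.

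**Figure D3:**
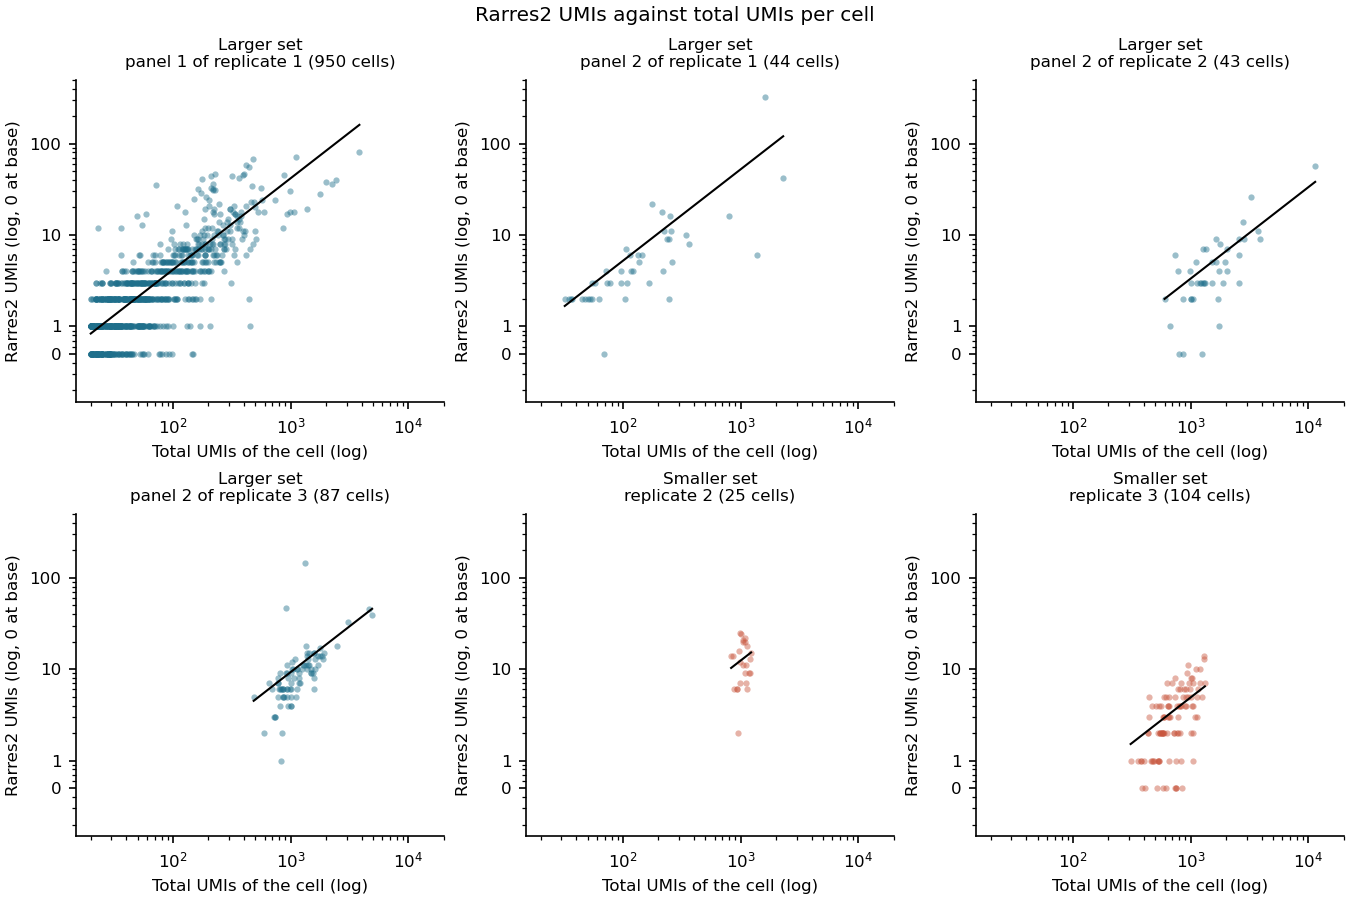
Each point is 1 cell, with its total UMIs on the horizontal axis and its Rarres2 UMIs on the vertical axis (log axes, cells without Rarres2 drawn at the mark 0), and the line is the library's pooled level. Single cells with 319 UMIs in B1 and 147 UMIs in B3 stand far above the line.

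The cells with the most Rarres2 carried sets of other genes, which are named here after their values were seen. In B1 the cell with 319 Rarres2 UMIs, where 84.2 were expected at its depth of 1612, also held 187 UMIs of Gfra2, a receptor subunit for neurturin, 183 of Cspg4, the NG2 proteoglycan of oligodendrocyte precursors and pericytes, and 87 of Slc6a13, a transporter of GABA and taurine. These were 40.7%, 37.7% and 41.2% of all UMIs of those genes in the library. In B3 the cell with 147 Rarres2 UMIs, where 12.4 were expected, held 47 UMIs of Anxa2, a membrane-binding annexin (5.58 expected), 66 of Cspg4 (11.7 expected) and 15 of Fabp7, a fatty acid carrier of radial glia (0.485 expected). The next cell of that library had 47 Rarres2 UMIs, with 8.43 expected. It held 40 UMIs of the collagen gene Col3a1 (2.51 expected) and 14 of the proteoglycan gene Lum (0.977 expected), and all 3 measured fibroblast markers were found in it, at 60.7 per 1000 UMIs against 3.95 over the library. In A1 and B2 the cell with the most Rarres2 was the deepest cell. Its level was 21.1 per 1000 UMIs in A1, below the pooled 41.7, and 4.99 in B2, above the pooled 3.33.

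With all cells, Cspg4 had the highest mean likeness to Rarres2 in the larger set. Slc6a13 came first instead among genes found in at least 25% of cells, without replicate 2, and without the cell with the most Rarres2 in each library, where Cspg4 was 4th. Likeness is the Pearson correlation across the cells of a library of both genes' deviations from the counts expected at each cell's depth, averaged over libraries, for 90 genes found in at least 10% of cells and at least 10 cells in at least 2 libraries. It is a description: the cells of a library share depth, capture and primers. The libraries averaged also differ by gene. Slc6a13 had no UMI in B2. It was found in 23.5% of cells of A1, so its A1 value drops out at the 25% limit. Cspg4 was first in no single library: Gucy1a3 led in A1 (0.35), and Gfra2 (0.97), Bcas1 (0.72) and Fabp7 (0.88) led in B1, B2 and B3. For Cspg4 the correlation was 0.33 in A1 and 0.67, 0.67 and 0.69 in B1, B2 and B3, with a mean of 0.59. Without the cell with the most Rarres2 it was 0.32 in A1 and 0.72, 0.63 and 0.11 in B1, B2 and B3. The Pearson value of B3 therefore rested on 1 cell. Spearman's rho for Cspg4, with all cells, was 0.13 in A1 and 0.68, 0.53 and 0.30 in B1, B2 and B3.

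The same could be read in counts of UMIs. Cells in the top tercile by Rarres2 level held 61.8 Cspg4 UMIs per 1000 (58.8 to 64.8) in A1, against 30.5 (28.9 to 32.1) in the bottom tercile, with totals taken without Rarres2. The top tercile held 118, 7.24 and 10.9 Cspg4 UMIs per 1000 in B1, B2 and B3, against 17.8, 4.18 and 7.32 in the bottom tercile. The ratio of top to bottom tercile was 2.03 in A1 and 6.62, 1.73 and 1.49 in B1, B2 and B3. In B1 the cell with the most Rarres2, in the top tercile, held 183 of the library's 485 Cspg4 UMIs. The same cell of B3, also in the top tercile, held 66 of the library's 963, and the ratios were not computed without these cells. Median depth in these terciles was 48 and 51 UMIs in A1 and 89.5 and 219 UMIs in B1, and the part of depth was not tested.

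High Rarres2 and high Cspg4 nevertheless met in the same cell in only part of the cases. In A1, 50 of 950 cells were more than 2 SD of counting error above expectation for Rarres2 and 53 for Cspg4, a limit chosen after the values were seen. Both held in 23 cells, 46.0% of the Rarres2-high and 43.4% of the Cspg4-high cells, and the other 27 Rarres2-high cells were not high in Cspg4. Both held in 2 of 3 Rarres2-high cells of B1, 2 of 3 of B2 and 1 of 2 of B3. Among all cells 6.82%, 11.6% and 4.60% of B1, B2 and B3 were high in Cspg4. With Pdgfra in place of Cspg4 both held in 2 of 4 of C2 and 0 of 6 of C3. Among all cells 24.0% of C2 and 3.85% of C3 were high in Pdgfra. These counts are too small to be read against those shares. The 50 Rarres2-high cells of A1 held 29.3% of its Rarres2 UMIs in 9.89% of its depth.

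**Figure D4:**
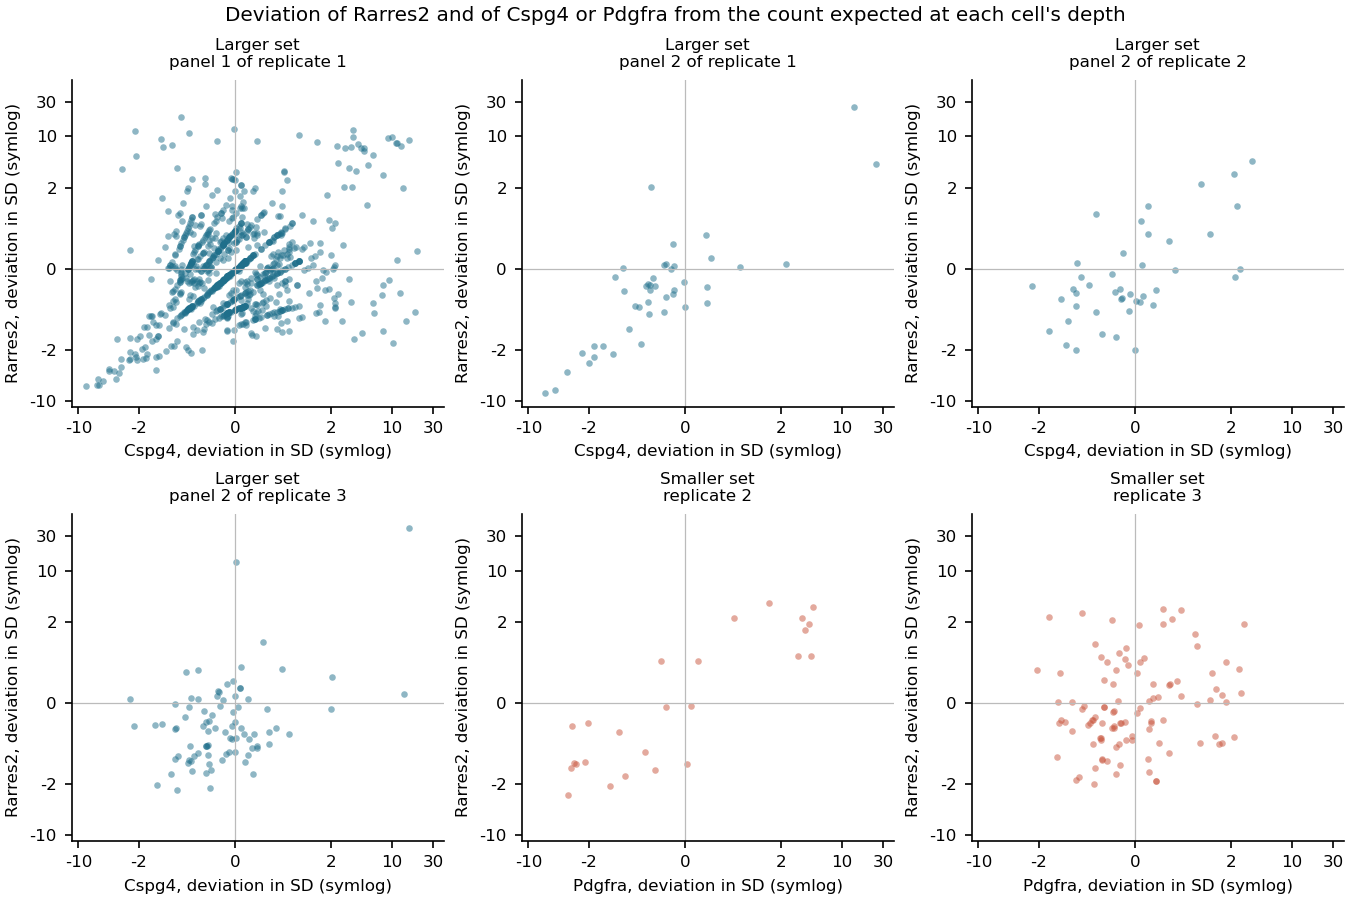
Each point is 1 cell, with the deviation of Cspg4 (larger set) or Pdgfra (smaller set) from the count expected at its depth on the horizontal axis and that of Rarres2 on the vertical axis, in SD of counting error on symmetric log axes. In A1, 23 of the 50 cells high in Rarres2 are also high in Cspg4, as are 53 of all 950 cells, and in C2 the correlation is 0.82.

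After Cspg4, the genes most like Rarres2 in the larger set were Slc6a13, with a mean correlation of 0.57, Fabp7 (0.42), Gfra2 (0.40), Anxa2 (0.38) and Gucy1a3, a subunit of the nitric oxide receptor guanylyl cyclase (0.36). Slc6a13 was positive in the 3 libraries that detected it, at 0.11 in A1 and 0.95 and 0.65 in B1 and B3, and at 0.11, 0.85 and 0.51 without the cell with the most Rarres2. Spearman's rho for Slc6a13 was lower, at 0.02 in A1 and 0.67 and 0.16 in B1 and B3. Gfra2 had 0.01 in A1 and 0.97 and 0.23 in B1 and B3, and 0.00, 0.80 and 0.04 without that cell. Its mean thus rested mostly on B1, a library of 44 cells. Gucy1a3 had 0.35 in A1, the highest of all genes there, and 0.02 and 0.70 in B1 and B3. Without the cell with the most Rarres2 it had 0.34 in A1 and 0.25 and 0.24 in B1 and B3. Spearman's rho for Gucy1a3 was 0.10 in A1 and 0.04 and 0.23 in B1 and B3. Fabp7 reached 0.88 in B3 and was at 0.01 without that cell, and in A1 it had -0.04. Anxa2 had 0.71 in B3 and 0.88 without that cell, when the next cell was the highest in Rarres2. That next cell held 71 Anxa2 UMIs against 3.81 expected. In B2 Anxa2 had -0.07 while its Spearman's rho was 0.26, so its sign was not firm there. Of the 24 genes compared in all 4 libraries 3 were positive in each: Cspg4, the BMP receptor gene Bmpr1a and Nenf. Bmpr1a had 0.03 in A1 and 0.72, 0.12 and 0.55 in B1, B2 and B3. Without the cell with the most Rarres2 it had 0.06 in B3. Nenf had 0.03 in A1 and 0.02, 0.32 and 0.26 in B1, B2 and B3. Spearman's rho for Nenf was -0.01 in A1, so its sign was not firm.

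The genes least like Rarres2 were Fcer1g, the Fc receptor gamma chain of myeloid cells, with a mean of -0.37, Ucp2, a mitochondrial carrier, with -0.24, and Rin2, with -0.23. All 3 were negative in all 4 libraries of the larger set, which 6 of those 24 genes were, the other three being Atp9b, Grina and Bhlhe41. The sign was not firm for Ucp2 and Rin2: the top tercile of cells by Rarres2 held 25.9 Ucp2 UMIs per 1000 in A1, against 22.7 in the bottom tercile, and 21.9 Rin2 UMIs per 1000 in B3, against 21.5, and Spearman's rho was 0.03 for Ucp2 in A1 and 0.14 and 0.03 for Rin2 in B1 and B3. Nor was the sign firm for Atp9b, Grina and Bhlhe41. In A1 and B2 rho was 0.01 and 0.08 for Atp9b and 0.01 and 0.03 for Grina, and in B1 it was 0.18 for Bhlhe41. For Fcer1g the correlation was -0.17 in A1 and -0.60, -0.39 and -0.30 in B1, B2 and B3. The top tercile of cells by Rarres2 held 20.2 Fcer1g UMIs per 1000 in A1, against 35.2 in the bottom tercile. The top tercile held 42.2, 63.9 and 83.3 in B1, B2 and B3, against 176, 96.2 and 125 in the bottom tercile. In B1 a single cell of 2298 UMIs in the bottom tercile held 570 of the library's 1379 Fcer1g UMIs. Fcer1g was the gene with the most UMIs in B1, B2 and B3, and its part in the totals that set the expected counts was not tested.

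In the smaller set Pdgfra, the receptor that marks oligodendrocyte precursors, came first of the 6 genes that could be compared in both libraries. Its correlation with Rarres2 was 0.82 in C2 (25 cells) and 0.18 in C3 (104 cells). The top tercile by Rarres2 held 72.4 Pdgfra UMIs per 1000 (66.6 to 78.6) in C2, against 34.7 (31.0 to 38.8) in the bottom tercile, and 4.89 (4.09 to 5.79) in C3, against 3.99 (3.22 to 4.89), with intervals that overlap. Next came the macrophage receptor gene Mrc1 (0.51 in C2 and 0.13 in C3), the myelin gene Mag (0.12 and 0.24), the microglial receptor gene Cx3cr1 (0.11 and 0.23) and the metallothionein Mt1 (-0.07 and 0.14). C1qa had -0.60 in C2 and -0.47 in C3, but it makes up most of the totals that set the expected counts, so other genes deviate against it by construction and nothing is read from its sign. With Rarres2 and C1qa out of the total the mean correlation of Pdgfra was 0.42, against 0.50 with them.

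**Figure D5:**
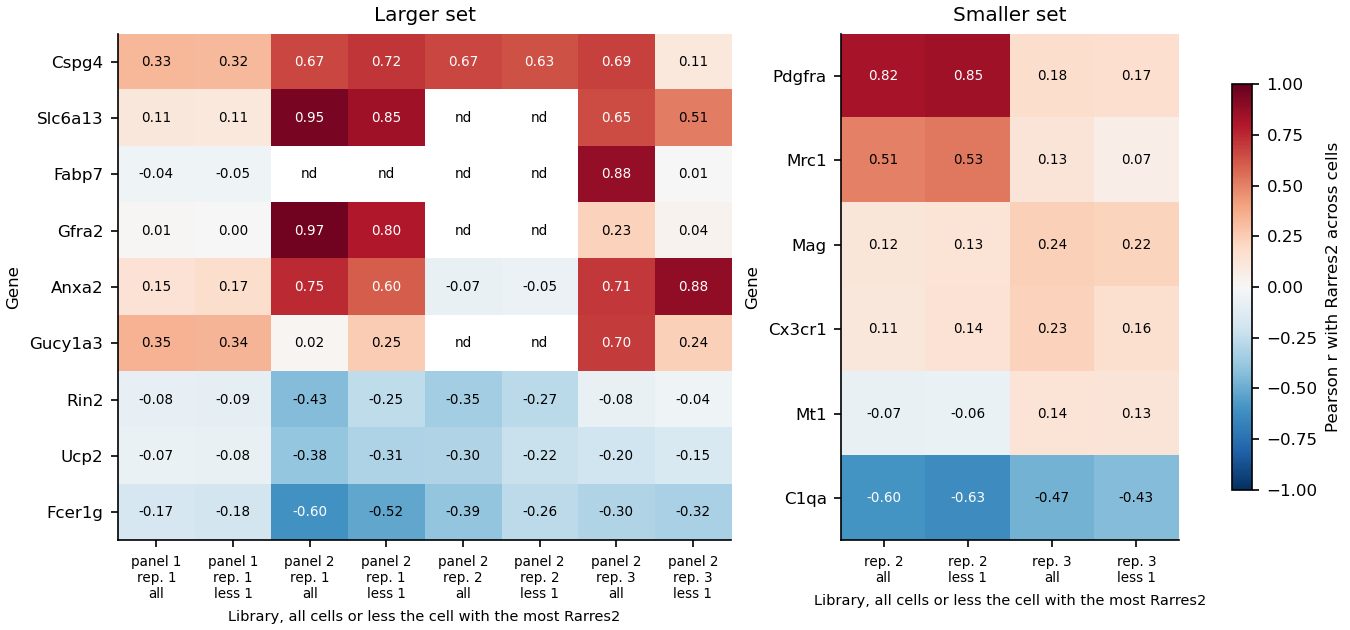
Pearson correlation across cells between the deviations of each gene and of Rarres2 from the counts expected at a cell's depth, per library (columns), for all cells and for all less the cell with the most Rarres2 ("less 1"); nd marks a gene found in too few cells. Cspg4 is positive in every column of the larger set, from 0.11 to 0.72, and Fcer1g is negative in every column of that set.

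Markers of several cell types stood in the same cells, so Rarres2 could not be assigned to a type by them. The oligodendrocyte precursor list had a correlation with Rarres2 of 0.33 in A1, 0.67, 0.44 and 0.46 in B1, B2 and B3, and 0.82 and 0.18 in C2 and C3. In the larger set this was Cspg4 and not its other measured member Fyn, a kinase, which had 0.07, 0.03 and -0.03 in A1, B2 and B3 and no UMI in B1, and in B3 the value of Cspg4 rested on 1 cell as given above. In C3 the oligodendrocyte list (Mag and Mobp) had 0.26, the neuron list 0.24 and the ependymal list 0.21, all above the precursor list. Its members Cspg4 and Fyn were found in 90.9% and 24.5% of cells of A1 and in 100% of cells of B2 and B3. Of the tanycyte list, 7 of 8 measured members were found in A1, most often Gpr50, Vim and Crym at 56.1%, 52.9% and 39.3% of cells, and the list summed to 40.6 UMIs per 1000. Its correlation with Rarres2 was -0.12, and in B1, B2 and B3 the list summed to 0.0875, 0.729 and 4.46 per 1000 with -0.30, 0.00 and 0.15. In B1 the list held 1 UMI, in 1 of 44 cells, so the -0.30 rests on that cell and nothing is read from it. The tanycyte gene Rax, the only member of that list in the smaller set, was found in 0 of 25 cells of C2, which allows a share of cells with a Rax UMI of up to 12%, and in 85.6% of cells of C3. Of the ependymal list, Enkur and Nme5 were found in 11.4% and 7.37% of cells in A1, Nme5 in 97.7% in B2 and Foxj1 in 12.5% in C3. The correlation of that list with Rarres2 was -0.04 in A1, 0.07 in B2 and 0.21 in C3.

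The correlation of the summed list with Rarres2 in A1 was -0.11 for astrocytes (Gja1 and Gfap), -0.17 for microglia (Fcer1g), -0.23 for endothelium (Slco1c1, Slc2a1 and Slco1a4), 0.11 for mural cells (Acta2 and Mustn1), 0.06 for fibroblasts (Col3a1 and Lum), 0.00 for neurons (Slc17a8, Stmn2 and Gad1) and -0.09 for the pars tuberalis (Timeless and Tshb). Outside that library, the endothelial list, there Slc2a1 alone, had 0.50 in B1, where Slc2a1 was found in 8 of 44 cells. The cell with the most Rarres2 held 7 of the 18 Slc2a1 UMIs of B1. Slc2a1 was also below the limit of 10 cells set for single genes, so nothing is read from this value. Slc2a1 had 0.34 in B3, and 0.02 without the cell with the most Rarres2. Ttr, the only measured choroid plexus gene, had no UMI in any library of the larger set. Col3a1, Lum and Col1a1 of fibroblasts were at 0 in B1 and B2. In B3 all 3 were found and the fibroblast list had 0.28. There Col3a1 had 0.29 and Lum 0.22, and without the cell with the most Rarres2 they had 0.86 and 0.77, with the cell that held 47 Rarres2 UMIs still in.

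As a check on free RNA, Rarres2 was counted in cells with a UMI of the neuron list, since it is not a known gene of neurons. In A1 it was found in 94.6% of the 257 cells with a neuronal UMI (median depth 126 UMIs) and in 84.7% of the 693 cells without one (median depth 42). Thinned to 35 UMIs the shares were 76.8% and 77.9%. In B3 it was found in 100% of cells with (68) and without (19) a neuronal UMI, and in C3 in 93.2% of 88 cells with and 81.2% of 16 cells without, at median depths of 742.5 and 561. In B1 it was found in 97.6% of 42 cells with a neuronal UMI, and in B2 no neuronal UMI was found. The shares over all cells were 87.4% in A1 and 97.7% and 100% in B1 and B3. The comparison cannot decide on free RNA: every cell of B3 held Rarres2, and 42 of 44 cells of B1 held a neuronal UMI. In A1 the cells with a neuronal UMI were deeper. Markers of several types also stood in the same cells, so a neuronal UMI does not mark a neuron. No conclusion is drawn from these shares, and they are not read as expression. Free RNA was not measured, and its part in these shares was not tested.

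Cells with and without tdTomato RNA both held Rarres2. Levels here are Rarres2 UMIs per 1000 UMIs, with tdTomato left out of the total. In A1 the level was 36.2 (34.8 to 37.8) in the 281 cells with tdTomato, at a median depth of 131. It was 50.1 (48.0 to 52.3) in the 669 cells without tdTomato, at a median depth of 41. The order was the other one in B2, with 3.36 in 41 cells with tdTomato and 2.36 in 2 cells without it, and in B3, with 9.38 in 86 cells with it and 5.78 in 1 cell without it, numbers of cells too small for a comparison.

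Of the genes around chemerin, none of the receptors and proteases was measured, and the other members were measured in the larger set alone. The 4 receptor genes (Cmklr1, Gpr1 under both of its names, and Ccrl2) and the 17 proteases and carboxypeptidases that activate or inactivate chemerin were not analysed here. Of the retinoid genes 5 of 19 were measured. Stra6, the cell surface receptor for retinol uptake, was found in 14.5% of cells of A1 and in none of B1, B2 and B3. Rxrg, a retinoid X receptor, was found in 76.7% of cells of B2, in 1 of 87 cells of B3 and in no other library. Rarb, the retinoic acid receptor beta, was found in 17 of 950 cells of A1, 15 of which also held Rarres2, and Crabp1 and Ttr, which carry retinoic acid and retinol-binding protein, had no UMI.

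Of the retinoid genes, Stra6 and Rxrg could be correlated with Rarres2, each in 1 library. The correlation was -0.08 for Stra6 in A1 and 0.06 for Rxrg in B2. Of the regulators and adipokines 4 of 13 were measured, and leptin (Lep) and its receptor (Lepr) had no UMI in the larger set, which allows a share of cells with a UMI of up to 0.316% in A1 and does not limit the share of cells that use these genes. The insulin receptor gene Insr was found in 45.3% of cells of A1, at 8.81 UMIs per 1000, and in 0 of 44, 95.3% and 100% of cells of B1, B2 and B3. Its correlation with Rarres2 was -0.03 in A1, 0.58 in B2 and 0.04 in B3, and 0.57 in B2 without the cell with the most Rarres2. Ucp2 was found in 81.6% of cells of A1 and in 100% of cells of B1, B2 and B3, and its correlation with Rarres2 was -0.07 in A1 and -0.38, -0.30 and -0.20 in B1, B2 and B3.

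Of the thyroid and season genes of tanycytes 4 of 9 were measured. Gpr50, an orphan receptor of tanycytes, was found in 56.1% of cells of A1 at 13.8 UMIs per 1000, and Crym, a thyroid hormone binding protein, in 39.3% at 7.97 per 1000. Both were at or near 0 in B1, B2 and B3, where Crym had 2 UMIs in B2. Rarres2 was found together with Gpr50 in 494 of 533 cells and with Crym in 358 of 373 cells of A1, where it was found in 87.4% of all cells. Cells with a UMI of the tanycyte list were deeper, with a median of 61 UMIs against 28 in cells without one, so no association is read from these counts. The correlations of level were -0.12 for Gpr50 and -0.09 for Crym. Tshb, the beta subunit of thyrotropin, had -0.07 in A1 and 0.10 in B2, and Thrb, a thyroid hormone receptor, had -0.09 in B3. The value for Tshb in B2 was the highest of these 4 genes.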

How the data were processed

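UMI counts per cell and amplicon were deposited by the authors, who ran BD's targeted Rhapsody pipeline (1.3 for A1, 1.5 for the others, per the file headers), with mm9 named in the submitters' processing notes. Amplicons were summed per gene, and barcodes with at least 20 UMIs and 5 genes kept. The gene, its lists and the rules were chosen with earlier results of these data known. Named were Rarres2, measured partners, per gene set the 6 genes most and 3 least like it, up to 3 members of each cell type list (the oligodendrocyte list of the larger set is not reported here), and its neighbours by UMIs. Replicates are captures. Nothing was tested, since cells are not replicates. Expected counts are a cell's total times the gene's share of the library, and deviations were divided by the square root of the expectation, a step checked on simulated data. Thinned shares are expectations, not draws. No doublets were called, and an alternative dropped the deepest 5% of cells. The tools were Python 3.11.15 with scipy 1.17.1, numpy 2.4.6, pandas 2.3.3 and matplotlib 3.10.9.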

Additional observations from a re-analysis of the deposited data

Results flagged for a closer look

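Signals of Rarres2 stood in barcodes that no value above uses. The 21 barcodes found in the tables of replicates 2 and 3 held 95 UMIs of the PolyA_1 amplicon in 11 barcodes, 76 of them in 1 barcode, and 0 of the Reference_end amplicon, of 23820 UMIs in all. In the cells kept from the 6 libraries PolyA_1 took 47.4% to 54.3% of Rarres2 UMIs. With these barcodes added, its share in B2 was 66.4%, against 54.3% without them.

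The 605 barcodes of A1 below 20 UMIs or 5 genes held 299 Rarres2 UMIs of 6766 UMIs, or 44.2 per 1000 (39.3 to 49.5), where a count of 0 would allow up to 0.443. The 950 cells kept had 41.7 per 1000 (40.5 to 43.0), which lies within the interval of the barcodes left out. Rarres2 had a UMI in 244 of the 605, or 40.3%, at a median depth of 11 UMIs.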

How the results depend on the processing

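No paired analysis was possible because no result comes from a test. Of the values that moved beyond the spread of captures, or beyond the counting interval in A1, the share of cells thinned to 35, 20 and 100 UMIs was 36.9%, 26.2% and 57.8% over B1, B2 and B3, 77.5%, 58.5% and 95.7% in A1, and 24.8%, 15.4% and 52.2% in the smaller set. With at least 2 UMIs it was 64.5% in A1 and 87.5% in the smaller set. In A1 it was 69.1% over all barcodes and 97.3% with at least 50 UMIs and 10 genes, and over B1 to B3 it was 92.5% with the 21 shared barcodes kept. The level in A1 was 44.3 per 1000 as a mean over cells, 39.5 as a median, 46.0 without the 5% of cells with the most UMIs and 44.4 with the top gene out of the total. With C1qa out of the total it was 74.96 in the smaller set. Over the 12 genes of both sets it was 973 over B1 to B3, 969 in A1 and 1000 in the smaller set. Without the 5% of cells highest in Rarres2 the spread was 1.41 over B1 to B3, against 13.7, and 1.22 in A1, against 3.76. For the spread in A1 the limit was a 1.5-fold change, not a counting interval. Without the cell with the most Rarres2 in each library, a setting chosen after seeing the data, the spread over B1 to B3 was 2.95. The mean level there was 13.1 per 1000, against 21.6, a move that stayed within the spread of captures.

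Of the 6 genes most like Rarres2 in the larger set, 2 stayed among the first 6 with Spearman correlation, 3 without the 5% of cells with the most UMIs and 3 without the cell with the most Rarres2. Cspg4 was among the first 6 in every setting run, but Slc6a13 came first in 3 of them: genes in at least 25% of cells, without replicate 2, and without the cell with the most Rarres2. Leaving out 1 replicate kept 2 to 4 of the 6 in the larger set and 3 to 4 in the smaller set. In the same way the mean share ran from 95.4% to 98.9% over B1 to B3 and from 91.3% to 100% in the smaller set. The mean level ran from 6.32 per 1000, without replicate 1, to 30.8 over B1 to B3 and from 4.92 to 12.4 in the smaller set, and the spread from 10.6 to 19.6 and from 1.27 to 3.13. The cause of these moves was not tested. In B2 and C2, 43 and 25 cells limit what can be seen.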
